A study of Mus musculus with 3 samples.

Results

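The genes described here encode 4 ligands of the vascular endothelial growth factor (VEGF) family (Vegfa, Vegfb, Vegfc and Pgf), 2 angiopoietins (Angpt1 and Angpt2), the angiopoietin-like protein Angptl4, the VEGF receptor Flt1 and the co-receptors Nrp1 and Nrp2. These 10 genes were chosen by symbol and all had a row among the 20308 in the table. The samples were satellite cells, the stem cells of skeletal muscle, sorted as ZsGreen-positive cells (about 200000 per sample) from digested hindlimb muscle of several Pax7-ZsGreen mice aged 3 months, untreated as far as the labels say. The 3 libraries (replicates 1 to 3) form 1 group, so levels and their spread are described and no conditions are compared. The reporter marks cells that express Pax7, the sample labels give the tibialis anterior as tissue where the series text gives hindlimb, and nothing says whether each library came from its own pool of mice. P-values therefore rest on how far these samples differ, and that spread may be only technical.

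VEGF ligands make vessels grow and leak. VEGF-A signals mainly through Kdr on endothelial cells, while Flt1 binds VEGF-A, VEGF-B and placental growth factor and can act as a decoy, and VEGF-C acts on lymphatic endothelium through Flt4. Neuropilins bind VEGF and class 3 semaphorins and pass both signals on through partner receptors. Angiopoietins act on the receptor Tek (also called Tie2), and in muscle satellite cells lie close to capillaries, with which they exchange such signals.

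Vegfa was the most abundant of the 10 genes and Vegfb was listed at 0, so the sequence before the transcription start of each is shown for comparison. The 250 bases come from RefSeq (GRCm38.p6), read 5′ to 3′ on the gene's strand up to the base before its most upstream start, and capitals mark GC boxes, the letters GGGCGG on either strand. The Vegfa stretch is chr17:46032378-46032627 and the Vegfb stretch is chr19:6987652-6987901, both on the minus strand.
Vegfa: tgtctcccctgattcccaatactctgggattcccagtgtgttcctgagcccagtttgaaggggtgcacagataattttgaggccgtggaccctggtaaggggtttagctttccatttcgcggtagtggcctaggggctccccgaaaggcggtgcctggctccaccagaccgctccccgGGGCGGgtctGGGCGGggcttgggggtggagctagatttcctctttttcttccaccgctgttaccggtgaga
Vegfb: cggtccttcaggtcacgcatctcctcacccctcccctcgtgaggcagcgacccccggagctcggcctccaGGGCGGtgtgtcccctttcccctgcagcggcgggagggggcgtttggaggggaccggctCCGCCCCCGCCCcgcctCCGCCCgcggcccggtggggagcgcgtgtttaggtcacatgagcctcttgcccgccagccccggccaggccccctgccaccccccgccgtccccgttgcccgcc
Vegfa had 2 GC boxes, which began 72 and 62 bases before the start, and Vegfb had 4. A GC box lay in this window in 7 of the 7 members with an entry in the RefSeq table (the 4 VEGF ligands, Flt1, Nrp1 and Nrp2), against 33.0% of the 27025 genes in that table, non-coding genes included. The core letters of the element bound by hypoxia-inducible factors, ACGTG or GCGTG on either strand, lay in 5 of the 7, against 38.6% of all genes, and in neither Vegfa nor Vegfc. No match of the first motif overlapped one of the second. Matches are letters in a window of 250 bases and say nothing about binding. An element outside that window, for Vegfa or any other gene, would not be counted.

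Vegfa stood far above the other members in every library. Vegfa (chromosome 17, 46016993 to 46032369, minus strand, GRCm38, GENCODE M21) had 516, 605 and 579 TPM in replicates 1 to 3, a mean of 567 ± 45.6 TPM (SD, n = 3). TPM is a transcript's share of all measured transcripts, corrected for its length and scaled to the same total in each library, so it allows levels of different genes to be compared. The mean of Vegfa was higher than that of 98.45% of genes and ranked 314 from the top. Its highest library was 1.17 times its lowest, and the median of that ratio was 1.21 over the 422 genes above 0 in all libraries with a mean within 2-fold of it. Vegfa made up 91.5%, 96.5% and 95.4% of the summed TPM of the 4 VEGF ligands.

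**Figure D1:**
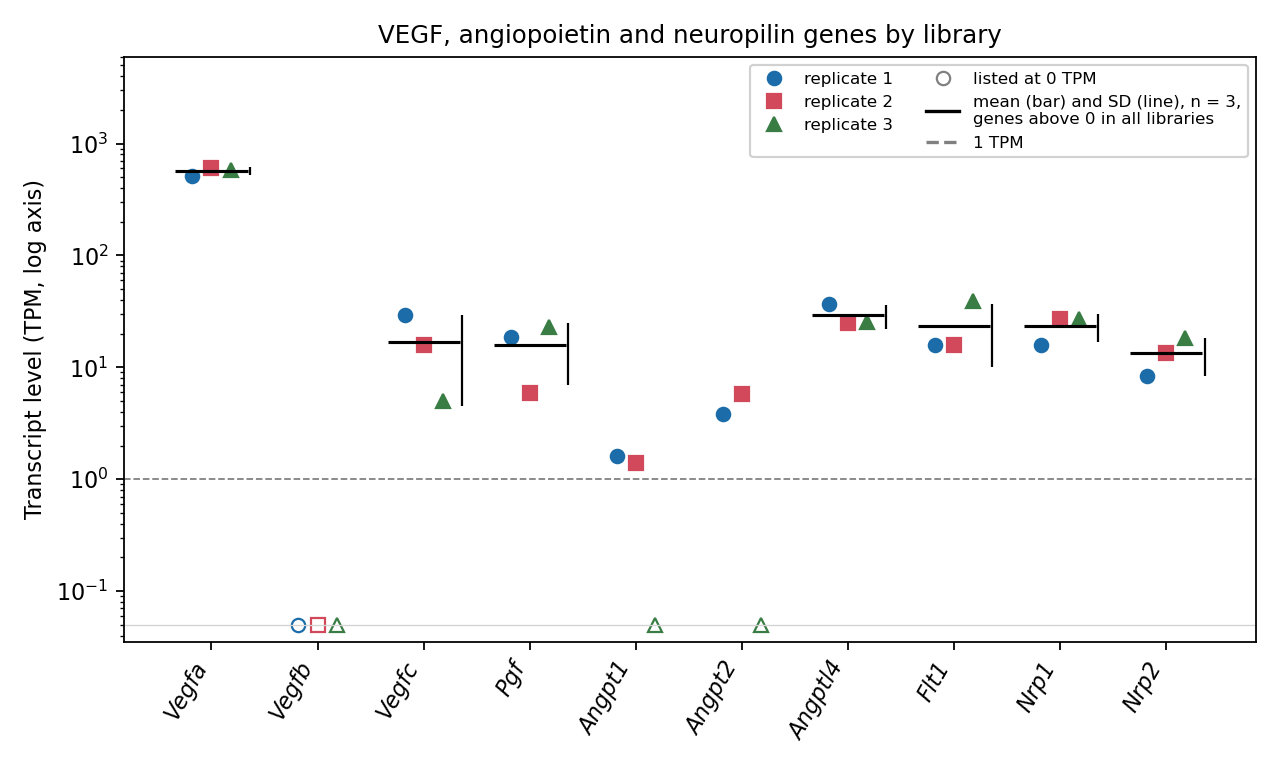
Level of each of the 10 genes in each library (TPM, log axis), with the mean and SD of the 3 libraries for genes above 0 in all of them; open symbols at the bottom are values listed at 0. Vegfa sits between 516 and 605 TPM, 6 genes lie between 4.95 and 39.2 TPM in every library, Angpt1 and Angpt2 are low or at 0, and Vegfb is listed at 0 throughout.

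Levels were tested against 1 TPM as log2(TPM + 0.1), which makes folds of low genes look smaller, with limma's moderated test across 12801 genes and Benjamini-Hochberg adjustment. Of the 10 members 9 were tested, and 7 were called above 1 TPM (adjusted p under 0.05), where 60.8% of all genes tested were called above. No member was called below, where 2.18% of all genes tested were; at an unadjusted p under 0.05 the count below was also 0. Angpt1 and Angpt2 were undecided, and Vegfb was not tested because it was 0 throughout. The median of the members' means, with Vegfb counted at 0, was 16.3 TPM, against 2.23 TPM for all genes with zeros counted alike and 11.5 TPM for all genes tested. Among genes above 0 in some library, Vegfc, Pgf, Angptl4, Flt1, Nrp1 and Nrp2 lay above 53.4% to 68.9%, Angpt2 above 26.1% and Angpt1 above 11.7%.

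**Figure D2:**
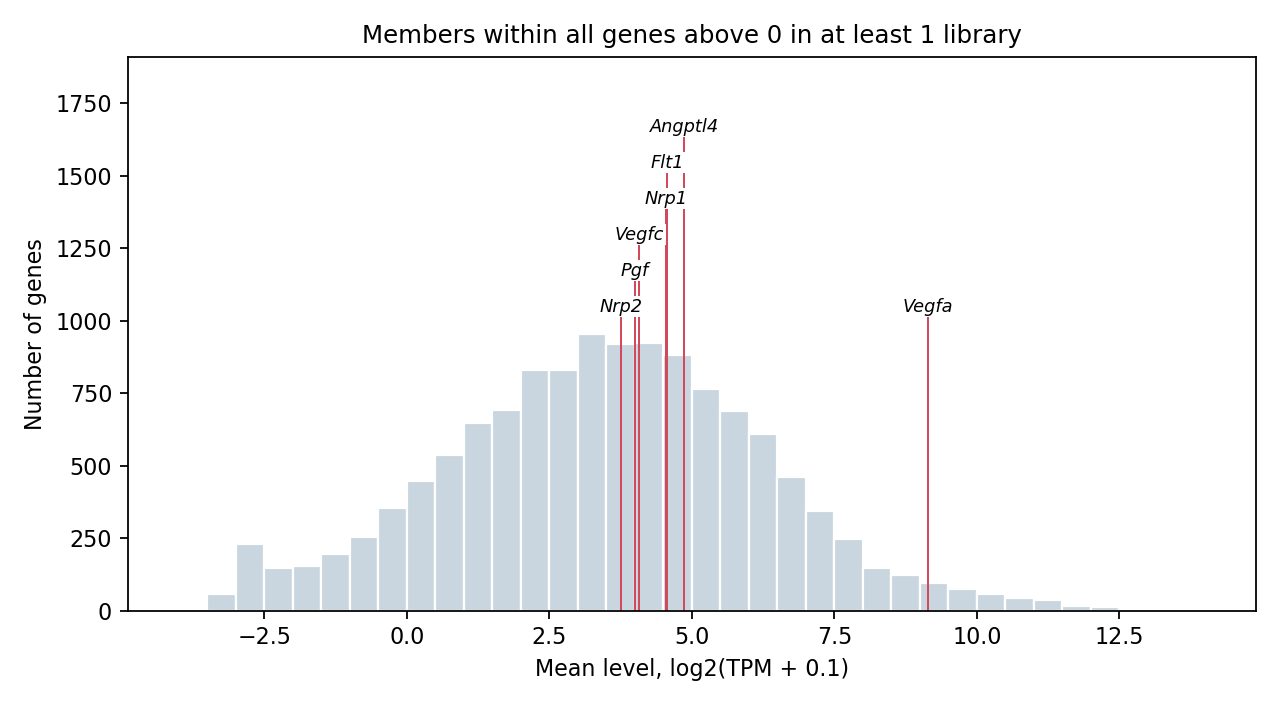
Number of genes (bars) by mean level, log2(TPM + 0.1), over the 12801 genes above 0 in at least 1 library, with a red line at the mean of each of the 7 members above 0 in all libraries. The other 6 lines fall in the middle of the distribution, from Nrp2 at 13.4 TPM to Angptl4 at 29.1 TPM, and Vegfa lies in the upper tail.

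Vegfc and Pgf were below Vegfa in every library and varied between libraries. Vegfc (chromosome 8, 54077606 to 54187096, plus strand), the lymphatic growth factor, had 29.5, 15.9 and 4.95 TPM, a mean of 16.8 ± 12.3 TPM (SD, n = 3; limma adjusted p = 0.000158 against 1 TPM). Pgf (chromosome 12, 85166635 to 85177790, minus strand), placental growth factor, had 18.7, 5.91 and 23.1 TPM, a mean of 15.9 ± 8.90 TPM (SD, n = 3; limma adjusted p = 6.79e-05). Vegfc was lowest in replicate 3 and Pgf in replicate 2, so the low values of these ligands fell in different libraries. Their highest libraries were 5.96 and 3.90 times their lowest, where genes of like level had medians of 2.08 and 2.13.

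Vegfb (chromosome 19, 6982473 to 6987651, minus strand), a ligand of Flt1, was listed at 0 TPM in all 3 libraries, as were 7480 genes in all. Zeros in the table include the ribosomal protein gene Rps27, which every cell uses, so a 0 can be a failed estimate and Vegfb can only be said to be listed at 0. Vegfb shared no exon base with another annotated gene, and 0% of the 31-base words of its longest transcript occurred in transcripts of other genes. Figf, the former symbol of Vegfd and the remaining ligand of Flt4, was also listed at 0 in all libraries.

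Each of the 8 other members above 0 in some library was below Vegfa. Within each library the member's log2(TPM + 0.1) minus that of Vegfa was taken, and limma tested it against 0 over 12800 genes. All 8 were called below Vegfa, where 97.1% of all genes tested were, so the count is near that of any set of genes. The nearest was Angptl4, at -4.30 ± 0.44 on the log2 scale (SD, n = 3; Vegfa 19.7-fold higher; limma adjusted p = 9.41e-08). Pgf lay at -5.36 ± 1.12 (Vegfa 41.1-fold higher; limma adjusted p = 1.32e-06) and Vegfc at -5.40 ± 1.37 (42.3-fold; limma adjusted p = 2.54e-06). Single libraries moved both by more than 1.5 times: Pgf lay at -4.71 without replicate 2, and Vegfc at -6.04 without replicate 1 and -4.68 without replicate 3. The receptors Nrp1, Flt1 and Nrp2 lay at -4.63 ± 0.32, -4.72 ± 0.73 and -5.46 ± 0.48. Each was lower in 3 of 3 libraries, for which the exact sign-flip permutation p (two-sided) was 0.25, the smallest that 3 libraries allow.

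VEGF-C needs cutting outside the cell before it signals fully, and 3 of 5 genes of that step were above 1 TPM (limma, Benjamini-Hochberg), a share near the 60.8% of all genes tested. The proprotein convertase Furin had 191, 232 and 125 TPM, Pcsk5 had 26.2, 19.6 and 18.1 TPM, and Pcsk7 had 16.2, 15.8 and 11.6 TPM. Furin was lowest in replicate 3, the library with least Vegfc. The protease Adamts3 and its cofactor Ccbe1 were undecided.

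The VEGF receptor Flt1 was above 1 TPM and highest in replicate 3. Flt1 (chromosome 5, 147561604 to 147726011, minus strand) had 15.8, 15.8 and 39.2 TPM, a mean of 23.6 ± 13.5 TPM (SD, n = 3; limma adjusted p = 1.69e-06 against 1 TPM). Replicate 3 was 2.49 times the lowest library, while genes of like level had a median of 1.89. The values are per gene, so membrane-bound and soluble forms of Flt1 were not separated. Kdr, the main signalling receptor of VEGF-A, had 9, 18.7 and 17.3 TPM (limma adjusted p = 1.53e-05). Kdr was lower than Flt1 in 2 of 3 libraries, by a mean of -0.58 ± 0.74 on the log2 scale (SD, n = 3). This was undecided (limma adjusted p = 0.531, exact sign-flip permutation p = 0.5), where 29.1% of all genes tested were called below Flt1. Flt4, the receptor of VEGF-C, was listed at 0, 0 and 0.33 TPM.

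Flt1 and Kdr are defining genes of endothelial cells, and markers of those cells were present in the same libraries. Of 18 endothelial markers, 14 were above 1 TPM, where 60.8% of all genes tested were, and none was at 0 in all libraries, and together they reached 353, 290 and 396 TPM in replicates 1 to 3. The junction protein Pecam1 had 27.7, 32.5 and 61.2 TPM and the claudin Cldn5 had 25.8, 46.4 and 66.4 TPM, both highest in replicate 3 like Flt1. The cadherin Cdh5, at 34.8, 35.6 and 31.8 TPM, was not. Other markers of the list also differed in the library where they were highest. Named after their values were seen, Plvap had 58.1, 20.7 and 16.15 TPM and Ramp2 had 37.8, 7.66 and 10.1 TPM, both highest in replicate 1. Eng, at 21.3, 6.72 and 38.0 TPM, and Vwf, at 19.15, 16.1 and 26.5 TPM, were highest in replicate 3. Robo4, Erg, Sox17 and Sox18 were undecided. Pecam1 exceeded Flt1 in 3 of 3 libraries by 0.83 ± 0.20 on the log2 scale (SD, n = 3; 1.78-fold). The call was undecided with all libraries (limma adjusted p = 0.21, exact sign-flip permutation p = 0.25) and above without replicate 3 (limma adjusted p = 0.0137), where 20.9% of all genes tested were called above Flt1 in the full set. The part of endothelial RNA in the Flt1 level was not tested, and in a bulk sample fewer cells of a type and less RNA per cell cannot be told apart.

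**Figure D3:**
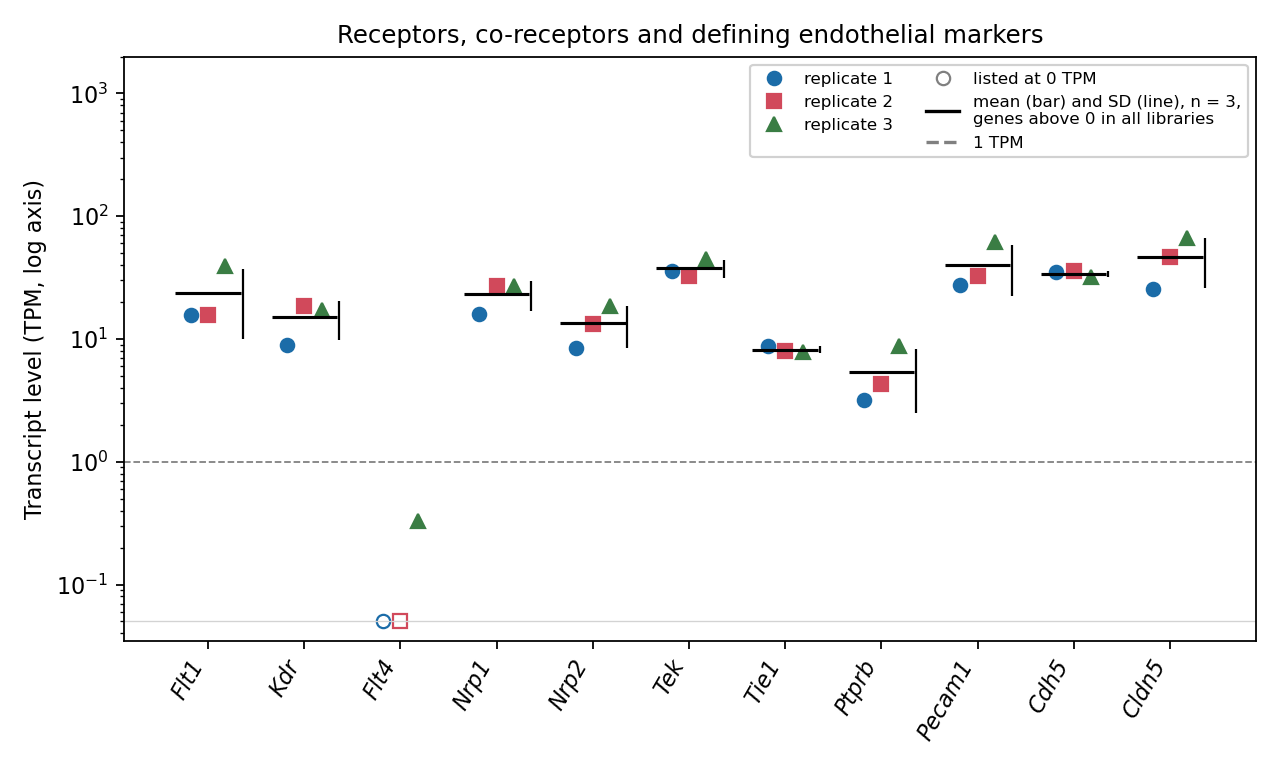
Level of the VEGF receptors, neuropilins, angiopoietin receptors with the phosphatase Ptprb, and the endothelial markers Pecam1, Cdh5 and Cldn5 in each library (TPM, log axis), with mean and SD where all 3 libraries are above 0. Flt1, Nrp1, Nrp2, Tek, Ptprb, Pecam1 and Cldn5 are highest in replicate 3, Nrp1 only barely over replicate 2. Tie1 and Cdh5 are nearly level, and Flt4 is listed at 0 in 2 libraries.

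Both neuropilins were above 1 TPM in the sorted cells. Nrp1 (chromosome 8, 128358604 to 128503363, plus strand) had 16.0, 27.0 and 27.1 TPM, a mean of 23.4 ± 6.39 TPM (SD, n = 3; limma adjusted p = 3.62e-07). Nrp2 (chromosome 1, 62703285 to 62818695, plus strand), which also serves VEGF-C, had 8.42, 13.4 and 18.5 TPM, a mean of 13.4 ± 5.02 TPM (SD, n = 3; limma adjusted p = 3.53e-05). Both were lowest in replicate 1. Nrp2 was below Nrp1 in 3 of 3 libraries, by -0.83 ± 0.24 on the log2 scale (SD, n = 3; Nrp1 1.77-fold higher). The difference was undecided (limma adjusted p = 0.202, exact sign-flip permutation p = 0.25), where 40.6% of all genes tested were called below Nrp1. Few of the 31-base words of the longest transcripts occurred in other genes (1.38% for Nrp1 and 1.42% for Nrp2), and the microRNA gene Mir1903 covers 0.82% of the Nrp1 exon bases.

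A list of 13 genes covered groups that include partners of the neuropilins: class 3 semaphorins, plexins and the adaptor Gipc1. Of these, 4 were above 1 TPM, 1 was below and 8 were undecided (limma, Benjamini-Hochberg), against 60.8% above over all genes tested. Plexin D1 (Plxnd1), a semaphorin receptor of vessels, had 36.6, 39.0 and 39.3 TPM. Plexin A2 (Plxna2) had 36.8, 25.3 and 31.2 TPM, and the semaphorin Sema3b had 15.3, 36.4 and 13.2 TPM, highest in replicate 2. Plxnd1 lay above both neuropilins in every library, whereas the 8 undecided genes had means of 0.137 to 4.08 TPM and the list median was 2.88 TPM. Plxna1 was the remaining gene above and Sema3e the gene below, both named after their values were seen. Sema3e, at 0.05, 0 and 0 TPM, was no longer below without replicate 2 (limma adjusted p = 0.491) or 3 (limma adjusted p = 0.521) and had no value without replicate 1.

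Angiopoietin transcripts were scarce and differed between libraries. Angpt1 (chromosome 15, 42424723 to 42676977, minus strand), the agonist of Tek, was at 1.60, 1.39 and 0 TPM. Angpt2 (chromosome 8, 18690263 to 18741562, minus strand), which can oppose it, was at 3.83, 5.75 and 0 TPM. Replicate 3 listed both at 0. Neither was decided against 1 TPM (limma adjusted p = 0.68 for Angpt1 and 0.904 for Angpt2). Angpt2 was higher in the 2 libraries that listed both genes above 0, and the difference was undecided (limma adjusted p = 0.709, exact sign-flip permutation p = 0.5), where 49.5% of all genes tested were called above Angpt1. An antisense gene, Gm17473, covers 14.2% of the Angpt1 exon bases, and without a stated strand setting reads there cannot be assigned.

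The receptor Tek lay above both angiopoietins in every library, a difference that was not tested. Of 7 genes of the pathway, 4 were above 1 TPM (60.8% of all genes tested were), 2 were undecided (Angpt1 and Angpt2) and Angpt4 was listed at 0 in all libraries. Tek had 35.5, 32.8 and 44.8 TPM (limma adjusted p = 7.27e-09 against 1 TPM), and all 3 values exceeded the highest Angpt2 value. Its partner Tie1 had 8.81, 7.97 and 7.80 TPM. Svep1, a matrix protein that binds Tie1, had 15.3, 21.9 and 24.0 TPM, and the phosphatase Ptprb had 3.21, 4.30 and 8.72 TPM. Ptprb was no longer above without replicate 3 (limma adjusted p = 0.191). Tek and Tie1 are also endothelial markers, and the part of endothelial RNA in their levels was not tested.

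By mean level Angptl4 came next after Vegfa among the members. Angptl4 (chromosome 17, 33773750 to 33781830, minus strand) inhibits lipoprotein lipase and does not act through Tek. It had 37.2, 24.8 and 25.4 TPM, a mean of 29.1 ± 6.99 TPM (SD, n = 3; limma adjusted p = 5.32e-08). Its highest library, replicate 1, was 1.5 times its lowest, where genes of like level had a median of 1.78. In its family 4 of 7 genes were above 1 TPM, a share near the 60.8% of all genes tested. These were Angptl4, Angptl2, Angptl7 and Angptl1, the last named after its values were seen. Angptl2 had 36.8, 9.22 and 15.5 TPM and Angptl7 had 14.4, 19.0 and 18.9 TPM. Angptl6 was listed at 0 in all libraries.

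Angptl4 is a target of the lipid-sensing PPAR factors, of whose 12 genes and targets 8 were above 1 TPM, where 60.8% of all genes tested were, 1 was below and 2 were undecided (limma, Benjamini-Hochberg). The highest were the fatty acid carrier Fabp4 at 1750, 1356 and 2587 TPM, the fatty acid oxidation enzyme Acadvl at 151, 174 and 165 TPM, and the pyruvate dehydrogenase kinase Pdk4 at 93.2, 90.0 and 93.7 TPM. The gene below was Ppara, named after its values were seen, at 0, 0 and 0.17 TPM. It was no longer below without replicate 1 (limma adjusted p = 0.518) or 2 (limma adjusted p = 0.543) and had no value without replicate 3. Angptl4 and Fabp4 are also adipocyte genes, and the part of other cells, adipocytes or not, in their levels was not tested. Of 4 adipocyte markers none was called above 1 TPM, also at an unadjusted threshold, Plin1, Cidec and Lep were listed at 0 in all libraries, and Adipoq was at 4.8, 0 and 0 TPM, so their sum was 4.8, 0 and 0 TPM.

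By mean level the 7 members above 0 in every library ran Vegfa, Angptl4, Flt1, Nrp1, Vegfc, Pgf, Nrp2. Between neighbours in this order, only the step from Vegfa to Angptl4 had no overlap between libraries. Among the other 6 genes, all Angptl4 values also lay above all Pgf and all Nrp2 values, while every other pair overlapped.

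Vegfa is a textbook target of the hypoxia-inducible factors, whose genes were also measured. Of 9 hypoxia factors and regulators, 7 were above 1 TPM (limma, Benjamini-Hochberg), where 60.8% of all genes tested were. The oxygen-regulated subunits Hif1a and Epas1 had 72.9, 91.2 and 117 TPM and 67.8, 69.8 and 80.9 TPM, and their partner Arnt had 162, 135 and 124 TPM. Of the genes whose products mark these factors for degradation or inactivate them, Egln2 had 48.2, 60.8 and 67.6 TPM, Vhl had 35.3, 36.3 and 20.1 TPM, Hif1an had 28.3, 30.7 and 20.2 TPM and Egln1 had 18.8, 11.1 and 5.50 TPM. Egln3 was at 0, 2.38 and 10.5 TPM and undecided, and Hif3a was listed at 0 in all libraries.

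Of 15 hypoxia targets other than Vegfa, 12 were above 1 TPM, where 60.8% of all genes tested were. The list median was 29.8 TPM, against 2.23 TPM for all genes with zeros counted alike and 11.5 TPM for all genes tested. The highest were Ndrg1 at 618, 654 and 657 TPM, the lactate dehydrogenase Ldha at 357, 402 and 362 TPM, and the hexokinase Hk2 at 234, 260 and 254 TPM. Vegfa thus lay between Ndrg1 and Ldha in all 3 libraries. Car9, a carbonic anhydrase, was listed at 0 in all libraries and Ankrd37 was at 4.49, 0 and 0 TPM. No sample of other oxygen exposure was measured, so no response to oxygen is shown.

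**Figure D4:**
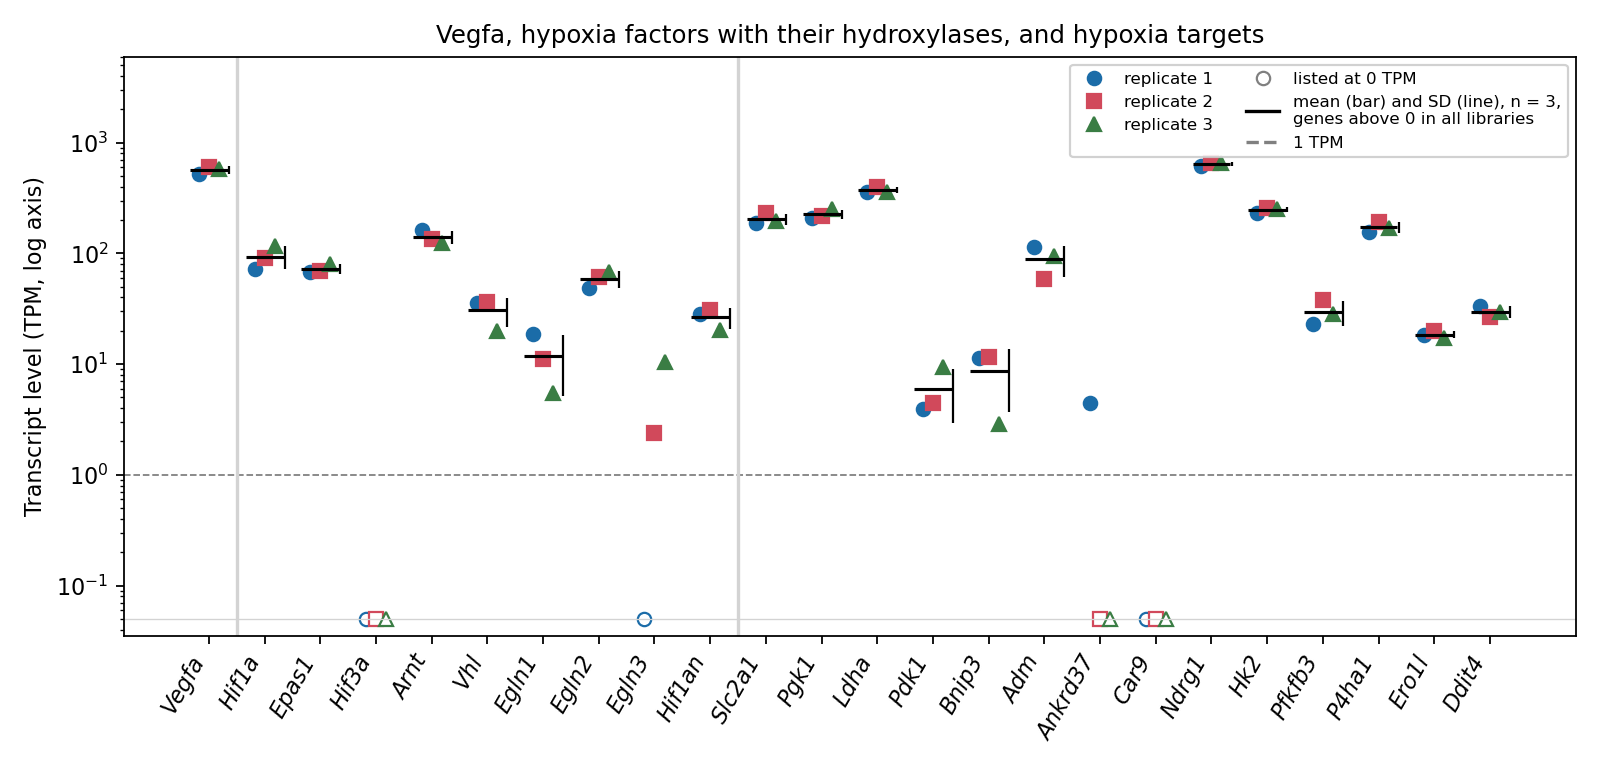
Level of Vegfa (left), hypoxia factors with the genes that regulate them (middle) and hypoxia targets (right) in each library (TPM, log axis), with mean and SD where all 3 libraries are above 0. Vegfa, Ndrg1 and Ldha stand highest, the factors Hif1a, Epas1 and Arnt lie between 67.8 and 162 TPM, and Car9 and Hif3a are listed at 0.

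Marker lists of satellite cells and of other cell types were measured in the same libraries. All 11 satellite cell genes were above 1 TPM (limma, Benjamini-Hochberg), where 60.8% of all genes tested were, a share to set beside each count below. The 11 summed to 8254, 8379 and 7917 TPM, led by Sdc4, Myod1 and Des, at means of 4135, 1240 and 1164 TPM. Summed levels of other lists in replicates 1 to 3 were 296, 244 and 291 TPM for pericytes and smooth muscle (5 of 10 above 1 TPM), 2343, 2234 and 2085 TPM for fibro-adipogenic cells (5 of 10) and 235, 359 and 288 TPM for leukocytes (4 of 10). They were 70.1, 53.7 and 112 TPM for mature fibres (3 of 7), 89.4, 98.6 and 116 TPM for Schwann cells (3 of 4) and 24.0, 13.1 and 5.50 TPM for platelets and megakaryocytes (1 of 5). Of the lymphatic endothelial list 2 of 4 were above, Pdpn at 2305, 2430 and 2679 TPM and Prox1 at 25.2, 34.5 and 18.4 TPM, while Lyve1 was at 2.75, 0 and 5.17 TPM. The fibro-adipogenic sum was led by Gsn, Col3a1 and Dpt, at means of 888, 585 and 572 TPM. Pdgfra of that list, named after its values were seen, was at 4.98, 0.11 and 0.06 TPM and undecided. Lum, Pi16, Dpp4 and Clec3b were undecided too. The leukocyte sum was led by Cd74 and Lyz2, at means of 153 and 70.1 TPM. Cd68, Adgre1, Csf1r, Itgam, Laptm5 and S100a8 of that list were undecided. Whether transcripts of these lists came from other cells was not tested, nor was the part of other cells in the member levels.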

How the data were processed

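RNA was isolated with a Picopure kit and libraries followed Illumina protocols, per the labels. Per the submitters' processing notes, reads were handled with RSEM 1.2.3, Bowtie 0.12.9 and CASAVA 1.8 on build mm10; for their settings, the annotation and the strand setting, nothing is stated. The authors deposited 1 table of TPM, renormalised without mitochondrial genes per its name, with 1 column per library summing to the same total. TPM keeps no read totals, so depth is unknown. Date-like symbols (27, from a spreadsheet) were left out, and 3 list symbols were matched by older names.

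Levels were tested with limma 3.58.1 (R 4.3.3) on log2(TPM + 0.1) with a variance trend, for genes above 0 in at least 1 library, against 1 TPM or a named gene, with Benjamini-Hochberg adjustment over all genes. Genes listed at 0 in all libraries were not tested, so they are part of the list counts but not of the 60.8% of all genes tested. The fits were tested on simulated data. Alternatives covered pseudocount, filter, scaling, trend, threshold and left-out libraries. Positions and 31-base words came from GENCODE M21 (GRCm38, the assembly of mm10).

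The members, the 10 pathway and 10 marker lists and the tests were chosen with earlier results of these data known. Named were all members, all genes of the VEGF ligand, receptor, angiopoietin and hypoxia factor lists, the 3 highest of each other list, and Pecam1, Cdh5 and Cldn5; any other gene was named after its values were seen. Not every gene named by this rule is reported here.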

Additional observations from a re-analysis of the deposited data

How the results depend on the processing

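No paired analysis was possible because there is 1 group. The number of members above 1 TPM was 7 under all 11 alternatives, and the number below Vegfa was 8 under 8 of 9 alternatives and 6 when only genes above 0 in all libraries were kept, which removes Angpt1 and Angpt2. The 77 single values of the 7 members and the 70 values against Vegfa kept direction and call. The count of all genes below 1 TPM, 279, was 5 with a pseudocount of 0.01, 451 with 1, 0 with a mean of at least 0.1 TPM, 2 with genes above 0 in all libraries, 478 with no variance trend, 1433 against 5 TPM and 0 against 0.5 TPM, and 0 without any 1 of the replicates; the cause was not tested. Angpt2 against 1 TPM (log2 difference 0.26 as reported) turned to -0.74 with a pseudocount of 0.01, -1.95 against 5 TPM, and ranged from -0.81 to 2.12 with a replicate left out. Angpt1 (-0.80 as reported) turned to 0.0766 against 0.5 TPM and ranged from -1.51 to 0.53 with a replicate left out. Ptprb turned to -0.0155 against 5 TPM. None of these was past the threshold. Of 56 other called genes that were followed through the alternatives, 9 lost the call in some alternative (18 of 610 values). Among the 9 were Sema3e, Ppara, Ptprb and the platelet marker Itga2b (without replicate 1, limma adjusted p = 0.0542). Angptl1, Egln1, Plxna1 and Tie1 lost it against 5 TPM only. TPM keeps no depth, so values near 0 have no detection limit.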

Other observations

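Transcripts of 9 further genes were also measured, as a list chosen with earlier results known. Most encode proteins that restrain vessel growth, a role not claimed here for Vash2. Of the 9 genes, 8 were above 1 TPM (limma, Benjamini-Hochberg), where 60.8% of all genes tested were. The other, Vash1 at 9.32, 1.71 and 0 TPM, was undecided. The list median was 145 TPM against 11.5 TPM for all genes tested. The metalloproteinase Adamts1 had 476, 444 and 490 TPM. Spry2, an inhibitor of growth factor receptor signalling, had 233, 344 and 377 TPM and was lowest in replicate 1. Timp3, a protease inhibitor that also blocks VEGF binding to Kdr, had 234, 201 and 189 TPM. The means of the 8 ran from 17.0 TPM for Vash2 to 470.2 TPM for Adamts1, and Serpinf1, named after its values were seen, had 64.3, 39.9 and 13.9 TPM. Adamts1, Spry2 and Timp3 lay below Vegfa in all 3 libraries.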
